A study of Mus musculus with 28 samples.

Results

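The 5xFAD effect on hippocampal RNA was measured independently in each of 2 mouse cohorts, and the difference between those effects is described here. For each gene it is the log2 fold change of 5xFAD over WT in the Ripk1 cohort minus the same fold change in the Zbp1 cohort, so that a positive value means a larger rise, or a smaller fall, in the Ripk1 cohort. The count tables of both cohorts were joined on Ensembl ID, which gave 55487 gene IDs, of which 22565 passed a filter on low counts and were tested. The 12 libraries concerned, of 28 samples in the series, are 5xFAD 1 to 3 and WT 1 to 3 of the Ripk1 cohort and 5xFAD 1 to 3 and WT 1 to 3 of the Zbp1 cohort. 5xFAD is a model of Alzheimer's disease in which mutant human transgenes are driven in neurons by Thy1 promoter elements, so it models amyloid deposition. The cohorts are named for the other allele bred in each, Ripk1 D138N (kinase-dead) or a Zbp1 knockout, but the 12 libraries carry neither, and WT here means no transgene and no mutant allele. Per the labels each cohort had its own WT mice of shared ancestry, all mice were 9 months of age, and the hippocampus was taken after behaviour tests. The other 12 hippocampal libraries, which carry the mutant alleles with and without 5xFAD, entered the fit to help estimate the spread between libraries. They also took part in the low-count filter and the scaling, and with the 12 libraries concerned alone 21386 genes were tested. Cohort, breeding line and any difference in handling between the cohorts cannot be told apart.

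Amyloid plaques draw in microglia, which switch on a set of genes known as the disease-associated microglia programme, among them the receptor Trem2, the protease inhibitor Cst7 and the lectin receptor Clec7a. A second programme follows type I interferon, whose receptor activates a transcription factor complex that includes STAT2 and IRF9. That complex binds the interferon-stimulated response element, a paired GAAA motif, and turns on antiviral genes such as Ifit1, Ifit3 and Mx1. Zbp1 is itself an interferon-induced gene whose protein senses Z-form nucleic acid and can signal through RIPK1 and RIPK3. Astrocytes around plaques raise Gfap, Serpina3n and complement genes.

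In the 12 libraries the depth was 16.6, 27.1 and 31.2 M counts in 5xFAD and 38.3, 41.9 and 36.8 M in WT of the Ripk1 cohort, and 27.1, 29.3 and 34.5 M in 5xFAD and 8.4, 32.1 and 29.7 M in WT of the Zbp1 cohort. Whether the libraries of a group came from separate animals is not stated, so each p reflects variation among libraries, which may be technical. A few libraries stood apart from their groups. In the Zbp1 cohort, 5xFAD 2 and WT 2 had 805.2 and 1009 CPM (counts scaled to library size after TMM, as everywhere here) of the nuclear RNA Malat1, against 1963 to 2680 CPM in the other 10 libraries. Limma's sample weights, in which 1 is typical and low values mark noisy libraries, were 0.169 and 0.310 for that pair, the lowest of 24. Ripk1 cohort 5xFAD 1 had 515 CPM of the activity-induced gene Fos, against 3.81 to 25.5 CPM in the others. Choroid plexus genes, from a tissue that borders the hippocampus, varied widely in every group: Ttr, the main transport protein made there, had 22.01 to 4049 CPM in 5xFAD and 233.9 to 2531 CPM in WT of the Ripk1 cohort, and 16.9 to 4496 CPM in 5xFAD and 74.9 to 4509 CPM in WT of the Zbp1 cohort.

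Interferon-induced genes had the larger estimated 5xFAD effect in the Ripk1 cohort, so the promoters of 3 of them are shown with that of Cst7, a plaque-associated microglial gene. Each is the window from 250 bases before to 50 bases after the gene's start in RefSeq's GRCm38.p6 table, read 5′ to 3′ on the gene's strand, with matches to GAAANNGAAA on either strand in capitals (a match on the other strand reads TTTCNNTTTC).
Ifit3 promoter, chr19:34583279-34583578, plus strand: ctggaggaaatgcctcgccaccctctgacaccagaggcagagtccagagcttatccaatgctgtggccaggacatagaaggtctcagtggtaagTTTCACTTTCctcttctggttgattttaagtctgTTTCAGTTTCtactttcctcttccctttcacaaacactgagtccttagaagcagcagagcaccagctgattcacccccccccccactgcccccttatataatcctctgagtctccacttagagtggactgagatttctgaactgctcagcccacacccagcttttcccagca
Ifit1 promoter, chr19:34640639-34640938, plus strand: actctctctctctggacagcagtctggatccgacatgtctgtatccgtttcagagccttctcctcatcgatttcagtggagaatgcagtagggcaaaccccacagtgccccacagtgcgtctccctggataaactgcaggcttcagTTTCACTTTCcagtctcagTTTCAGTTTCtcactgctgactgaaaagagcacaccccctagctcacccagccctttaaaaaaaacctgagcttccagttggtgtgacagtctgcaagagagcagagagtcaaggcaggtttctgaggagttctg
Cxcl10 promoter, chr5:92348840-92349139, minus strand: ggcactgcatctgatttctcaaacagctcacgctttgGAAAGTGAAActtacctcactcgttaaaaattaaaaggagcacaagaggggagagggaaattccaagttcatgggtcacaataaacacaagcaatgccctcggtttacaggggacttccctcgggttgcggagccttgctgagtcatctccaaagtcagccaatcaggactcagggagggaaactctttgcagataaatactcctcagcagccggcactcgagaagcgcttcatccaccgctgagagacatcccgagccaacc
Cst7 promoter, chr2:150570165-150570464, plus strand: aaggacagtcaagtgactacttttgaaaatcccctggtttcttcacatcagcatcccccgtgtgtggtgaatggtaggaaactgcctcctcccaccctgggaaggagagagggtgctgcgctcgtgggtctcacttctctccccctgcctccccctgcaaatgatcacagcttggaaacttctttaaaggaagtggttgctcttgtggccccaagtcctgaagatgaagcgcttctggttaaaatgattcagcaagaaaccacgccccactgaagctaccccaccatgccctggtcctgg

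Ifit3 and Ifit1 each held 2 matches on the opposite strand, Cxcl10 held 1 on its own strand, and Cst7 held none. Of the 33 type I interferon genes with a window in that table, 16 held the motif (48.5%), as did 9 of 10 interferon-gamma GTPases (90.0%), 5 of 16 MHC class I genes and 1 of 23 disease-associated microglia genes (4.35%). In all 27025 windows the share was 3.99%. A match describes the letters of the window and is not evidence of binding in this tissue.

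No gene passed the threshold for a cohort difference in the 5xFAD effect (edgeR's quasi-likelihood test, Benjamini-Hochberg adjusted p under 0.05, 0% of 22565), and the smallest adjusted p was 0.2368. At an unadjusted p under 0.05 there were 2063 genes (9.14%), of which 636 had the more positive effect in the Ripk1 cohort (2.82%) against 1427 in the Zbp1 cohort (6.32%). DESeq2's Wald test on the same libraries called 29 genes, 8 more positive in the Ripk1 cohort (0.0379%) against 21 in the Zbp1 cohort (0.0995%), together 0.137% of 21096 with an adjusted p. Without the low-count filter edgeR called 188 of 39469 genes (0.476%), 68 more positive in the Ripk1 cohort (0.172%) against 120 in the Zbp1 cohort (0.304%), and 187 of them were among the 22565. Leaving out Zbp1 cohort 5xFAD 2 gave 593 calls (2.53% of 23452), 208 more positive in the Ripk1 cohort (0.887%) against 385 in the Zbp1 cohort (1.64%). Leaving out any other 1 of the 12 libraries gave 0, as did leaving out both Zbp1 cohort 5xFAD 2 and WT 2. Those 593 genes include 28 of the 29 that DESeq2 called. The median standard error (SE) of a difference was 0.33 on the log2 scale, and for 11250 genes (49.9%) the 95% interval lay within a 2-fold difference in either direction.

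**Figure D1:**
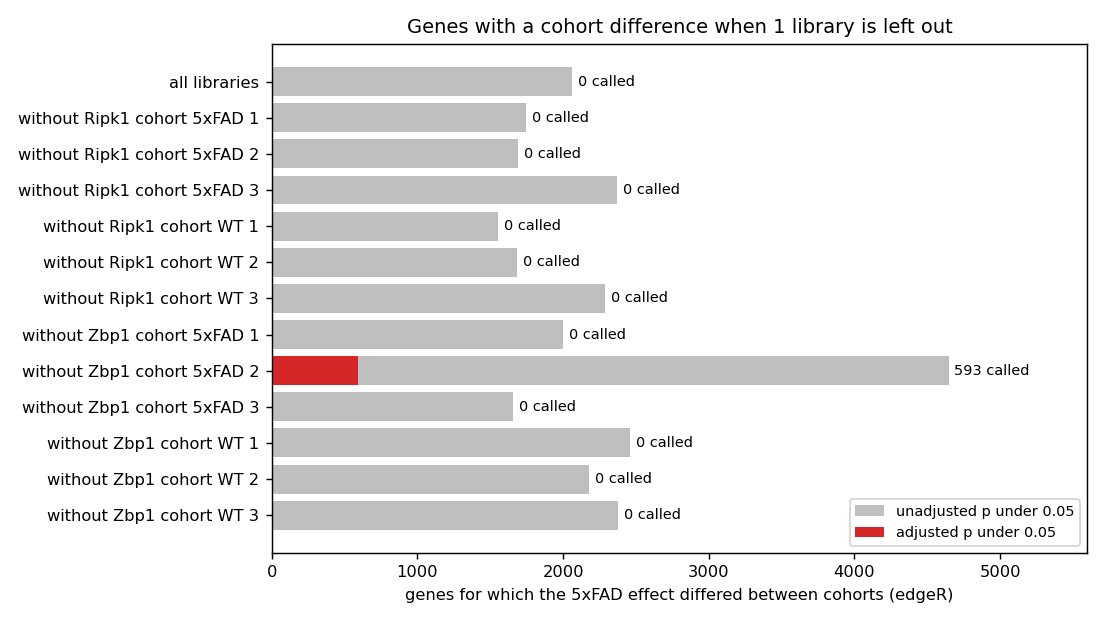
Number of genes whose 5xFAD effect differed between cohorts in edgeR's test, with all libraries and with each of the 12 libraries left out in turn (grey, unadjusted p under 0.05; red, adjusted p under 0.05). With Zbp1 cohort 5xFAD 2 left out 593 genes were called, and in each other fit shown 0 were.

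Within each cohort the 5xFAD effect itself was large. In the Ripk1 cohort 2426 genes were called (10.8%), 1063 higher (4.71%) and 1363 lower (6.04%) in 5xFAD than in WT. In the Zbp1 cohort 1003 were called (4.44%), 894 higher (3.96%) and 109 lower (0.483%). Of these, 651 were higher in both cohorts, which is 61.2% of the Ripk1 cohort's and 72.8% of the Zbp1 cohort's higher calls. Another 51 were lower in both, 3.74% of the Ripk1 cohort's and 46.8% of the Zbp1 cohort's lower calls, and 0 were called in opposite directions. Whether called or not, the Zbp1 cohort's estimate was negative for 1143 of the 1363 genes lower in the Ripk1 cohort. It was positive for 1035 of the 1063 higher there. The WT groups of the 2 cohorts, compared directly, differed in 6 genes (0.0266%), and the 5xFAD groups differed in 301 genes (1.33%), 79 higher (0.35%) and 222 lower (0.984%) in the Ripk1 cohort.

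**Figure D2:**
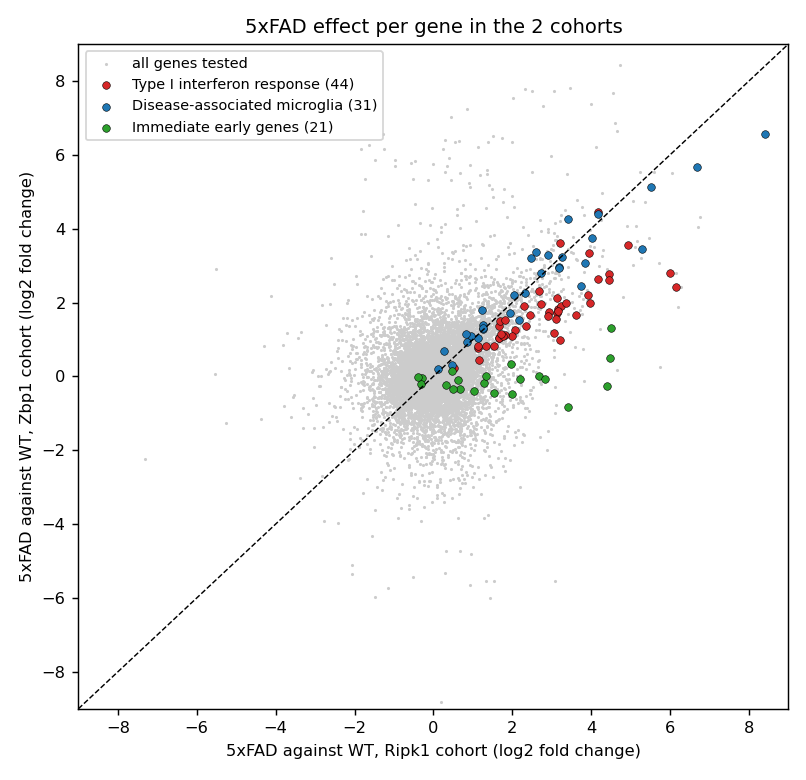
Log2 fold change of 5xFAD over WT, with the Ripk1 cohort on the x axis and the Zbp1 cohort on the y axis, for each of 22565 genes (grey), with 3 gene lists coloured and the line of equal effects dashed. Of 44 type I interferon genes (red) 42 lie on the Ripk1 cohort's side of the line, while 15 of 31 disease-associated microglia genes (blue) do.

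The type I interferon response rose in both cohorts, and most of its members had the larger estimated rise in the Ripk1 cohort. Of 45 symbols on the list 44 were tested. In the Ripk1 cohort 44 were called higher in 5xFAD than in WT (4.71% of all genes), with a median log2 fold change of 2.92. In the Zbp1 cohort 39 were (3.96% of all genes), with a median of 1.65. The difference was positive for 42 of 44 (49% of all genes), with a median of 0.85 and a range of -0.39 to 3.72 on the log2 scale. At an unadjusted p under 0.05, 25 of the 44 were larger in the Ripk1 cohort against 0 in the Zbp1 cohort, beside 2.82% and 6.32% of all genes. Summed over the list, the level was 1203, 876.6 and 1200 CPM in 5xFAD and 235.5, 256.9 and 244.9 CPM in WT of the Ripk1 cohort. Zbp1 cohort levels were 658.4, 633.3 and 601.5 CPM in 5xFAD and 240.5, 281.8 and 224.5 CPM in WT. The WT groups overlapped, and every Ripk1 cohort 5xFAD library lay above every Zbp1 cohort 5xFAD library. That order of the 5xFAD libraries held in 32 of the 44 genes taken singly (6.56% of all genes) and the reverse order in 0 (8.51% of all genes), and the matching order of the WT libraries in 2 of 44 (6.75% of all genes). Between the 5xFAD groups 15 of the 44 were called higher in the Ripk1 cohort and 0 lower (0.35% and 0.984% of all genes).

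Ifit3, a partner of Ifit1 in binding foreign RNA, had 92.5, 43.8 and 96.3 CPM in 5xFAD and 4.66, 6.62 and 7.71 CPM in WT of the Ripk1 cohort, and 32.6, 29.5 and 22.8 CPM in 5xFAD and 6.56, 13.2 and 6.65 CPM in WT of the Zbp1 cohort. The lowest Ripk1 cohort 5xFAD library was above the highest of the Zbp1 cohort, and the WT groups overlapped. Its log2 fold change was 3.61 ± 0.30 (SE) in the Ripk1 cohort against 1.65 ± 0.29 in the Zbp1 cohort, a difference of 1.96 ± 0.40 with a 95% interval of 1.14 to 2.79 (edgeR adjusted p = 0.237).

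Ifit1, an antiviral protein that binds RNA lacking a host cap, had 44.4, 22.4 and 40.2 CPM in 5xFAD and 1.91, 1.98 and 2.94 CPM in WT of the Ripk1 cohort, against 11.1, 9.2 and 9.05 CPM in 5xFAD and 2.91, 2.72 and 1.86 CPM in WT of the Zbp1 cohort. Its pattern was that of Ifit3, with 5xFAD groups that did not overlap and WT groups that did. The difference was 1.97 ± 0.41 (interval 1.11 to 2.82).

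Mx1, a dynamin-like GTPase that blocks viruses, had 7.45, 7.14 and 22.8 CPM in 5xFAD and 0.133, 0.167 and 0.22 CPM in WT of the Ripk1 cohort, and 2.32, 2.21 and 2.4 CPM in 5xFAD and 0.85, 0.389 and 0.27 CPM in WT of the Zbp1 cohort. Here the WT groups did not overlap either, at counts of 5 to 8 in the Ripk1 cohort and 7 to 12 in the Zbp1 cohort, and the fitted log2 fold change between the WT groups, Ripk1 over Zbp1 cohort, was -1.28 and not called. The difference in the 5xFAD effect was 3.72 ± 0.77. Cxcl10, a chemokine that attracts T cells, had 16.99, 7.21 and 19.9 CPM in 5xFAD and 0.159, 0.239 and 0.275 CPM in WT of the Ripk1 cohort, and 5.15, 3.62 and 5.52 CPM in 5xFAD and 0.485, 1.23 and 0.236 CPM in WT of the Zbp1 cohort. Its 5xFAD groups did not overlap, its WT groups overlapped at 6 to 10 and 4 to 38 counts, and the difference was 3.22 ± 0.65.

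Oasl2, a relative of the antiviral 2′-5′ oligoadenylate synthetases, had 83.6, 49.2 and 56.8 CPM in 5xFAD and 3.13, 3.71 and 3.73 CPM in WT of the Ripk1 cohort, and 25.2, 23.6 and 23.01 CPM in 5xFAD and 3.4, 4.34 and 3.65 CPM in WT of the Zbp1 cohort. Each Ripk1 cohort 5xFAD library was above each of the Zbp1 cohort, with WT levels that overlapped. The difference was 1.53 ± 0.37 (interval 0.76 to 2.29).

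Genes that carry the interferon signal had the same direction. Stat2, a subunit of the factor that reads the interferon signal, had 82.5, 73.7 and 89.6 CPM in 5xFAD and 39.6, 33.1 and 37.7 CPM in WT of the Ripk1 cohort, and 54.2, 38.4 and 52.7 CPM in 5xFAD and 41.8, 30.8 and 35.4 CPM in WT of the Zbp1 cohort. The 5xFAD groups did not overlap, the WT groups did, and the difference was 0.72 ± 0.18. Irf7, which amplifies interferon production, had 30.96, 18.9 and 22.2 CPM in 5xFAD and 1.09, 1.98 and 1.67 CPM in WT of the Ripk1 cohort, and 5.33, 10.4 and 6.22 CPM in 5xFAD and 0.485, 2.14 and 1.62 CPM in WT of the Zbp1 cohort. Its 5xFAD groups did not overlap, and the difference was 1.70 ± 0.47. For Isg15, a ubiquitin-like protein attached to other proteins, the difference was 1.35 ± 0.39.

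Zbp1 had 6.75, 3.71 and 7.35 CPM in 5xFAD and 0.106, 0.191 and 0.275 CPM in WT of the Ripk1 cohort, and 1.89, 1.83 and 3.61 CPM in 5xFAD and 0, 0.389 and 0.101 CPM in WT of the Zbp1 cohort. It was called higher in 5xFAD in both cohorts (edgeR adjusted p = 3.11e-05 and 0.00248), and the lowest Ripk1 cohort 5xFAD library was only just above the highest of the Zbp1 cohort. The difference was 1.38 ± 0.98 with an interval of -0.66 to 3.42, and it was -0.0081 without Zbp1 cohort WT 2, so these libraries allow both an equal and a several-fold larger rise. For the downstream kinase gene Ripk1 the difference was -0.29 ± 0.23, and Ripk3 lay at or under 0.943 CPM in all 12 libraries.

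**Figure D3:**
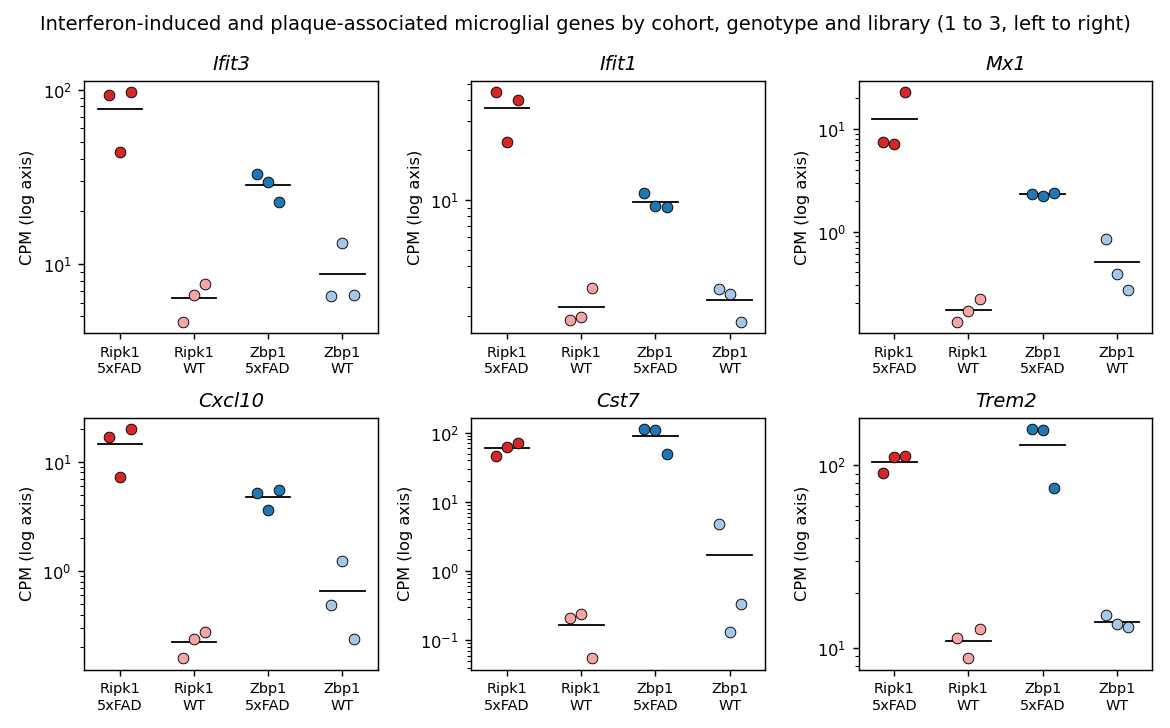
CPM of 4 interferon-induced genes and of Cst7 and Trem2 in each library (points, 1 to 3 from left to right) with the group mean (line), on log axes that differ between panels. For Ifit3, Ifit1, Mx1 and Cxcl10 all Ripk1 cohort 5xFAD libraries lie above all Zbp1 cohort 5xFAD libraries, while for Trem2 2 of 3 Zbp1 cohort 5xFAD libraries lie above the Ripk1 cohort's.

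The interferon difference kept its direction when libraries were left out, with a size that depended on Zbp1 cohort libraries. Over the 12 fits that left out 1 library the list's median ran from 0.64 (without Zbp1 cohort WT 2) to 1.03 (without Zbp1 cohort 5xFAD 2). In them 37 to 44 of its members were positive, and 18 to 28 had an unadjusted p under 0.05 (6.65% to 19.8% of all genes). Without both Zbp1 cohort WT 2 and 5xFAD 2 the median was 0.59, 37 members were positive and 16 had an unadjusted p under 0.05 (16.3% of all genes). DESeq2 called 5 of the 44 (Ifit3, Ifit1, Mx1, Cxcl10 and Oasl2), edgeR without the low-count filter called 10, and edgeR without Zbp1 cohort 5xFAD 2 called 7. These fits called 0.137%, 0.476% and 2.53% of all genes. The 15 calls between the 5xFAD groups fell to 5 without Ripk1 cohort 5xFAD 1, to 8 without Ripk1 cohort 5xFAD 3, to 8 without Zbp1 cohort 5xFAD 1, to 6 without Zbp1 cohort 5xFAD 3, to 3 with a replicate block and to 1 in a fit of the 12 libraries alone, and the list's median there stayed between 0.75 and 1.03. In hippocampal bulk RNA, more cells of a type and more RNA per cell cannot be told apart.

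Neighbouring immune programmes had smaller median differences. Of 18 MHC class I and peptide loading genes, 17 were called higher in the Ripk1 cohort against 15 in the Zbp1 cohort, beside 4.71% and 3.96% of all genes, with medians of 2.40 and 1.79. Their median difference was 0.55, 15 of 18 were positive, and 3 had an unadjusted p under 0.05, each larger in the Ripk1 cohort (2.82% of all genes). With 1 library left out the median ran from 0.28 (without Zbp1 cohort WT 2) to 0.70 (without Zbp1 cohort 5xFAD 2). In those 2 fits 2 and 11 members had an unadjusted p under 0.05, beside 9.30% and 19.8% of all genes. H2-T23, a non-classical MHC gene, had 44.5, 39.8 and 32.1 CPM in 5xFAD and 6.01, 8.2 and 7.96 CPM in WT of the Ripk1 cohort, and 29.97, 38.04 and 23.6 CPM in 5xFAD and 9.22, 10.8 and 8.84 CPM in WT of the Zbp1 cohort. There the 5xFAD groups overlapped and the WT groups did not, and the difference was 0.73 ± 0.25. B2m, the light chain of MHC class I, gave 0.51 ± 0.30. The interferon-gamma GTPases had medians of 2.53 and 2.16 in the Ripk1 and Zbp1 cohorts, 9 of 16 were positive, and their median difference of 0.11 ran from -0.17 without Zbp1 cohort 5xFAD 2 to 0.68 without Zbp1 cohort 5xFAD 3. For the 7 MHC class II genes the medians were 3.55 and 3.33, and 6 and 5 were called higher, beside 4.71% and 3.96% of all genes. Their median difference was 0.06, with 5 of 7 positive (49% of all genes). It ran from -0.69 without Zbp1 cohort WT 2 to 0.45 without Zbp1 cohort 5xFAD 2. Their regulator Ciita had the lowest difference of the 7, at -1.90 ± 0.64. Ciita had 7.98 CPM in Zbp1 cohort 5xFAD 3 and 1.17 to 3.54 CPM in the other 11 libraries.

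Fcgr4, an activating receptor for IgG on myeloid cells, had a difference of 4.30 ± 0.90, and its levels show another pattern. It had 2.62, 1.68 and 2.25 CPM in 5xFAD and 0.053, 0.0239 and 0 CPM in WT of the Ripk1 cohort, and 1.02, 2.07 and 1.16 CPM in 5xFAD and 0.485, 0.259 and 0.439 CPM in WT of the Zbp1 cohort. The 5xFAD groups overlapped and the WT groups did not, at 0 to 2 counts in the Ripk1 cohort and 4 to 13 counts in the Zbp1 cohort. The fitted fold changes of such low counts depend on the prior count.

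The microglial programme around plaques rose in both cohorts with medians that were close. Of 31 disease-associated microglia genes, 28 were called higher in the Ripk1 cohort with a median of 2.48 and 29 in the Zbp1 cohort with a median of 2.46, beside 4.71% and 3.96% of all genes. The median difference was -0.03, 15 of 31 were positive, 1 had an unadjusted p under 0.05 in each direction, and for 16 the interval lay within a 2-fold difference. The counts for the difference are near the shares over all genes, which were 2.82% and 6.32% at that p and 49.9% for the interval. The sign of the median was not stable, running from -0.18 without Zbp1 cohort 5xFAD 3 to 0.17 without Zbp1 cohort 5xFAD 2. Trem2, the lipid-sensing receptor the programme depends on, had 90.7, 111 and 112 CPM in 5xFAD and 11.4, 8.8 and 12.7 CPM in WT of the Ripk1 cohort, and 158, 157 and 75.5 CPM in 5xFAD and 15.2, 13.6 and 13.03 CPM in WT of the Zbp1 cohort. Zbp1 cohort 5xFAD 3 was below all Ripk1 cohort 5xFAD libraries and the other two were above them. The log2 fold changes were 3.25 ± 0.22 and 3.23 ± 0.22, with an interval of -0.59 to 0.63 on their difference.

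For the members of the programme that are nearly silent in WT, the comparison rested on 1 control library. Cst7 had 46.04, 62.97 and 70.3 CPM in 5xFAD and 0.212, 0.239 and 0.0549 CPM in WT of the Ripk1 cohort, and 112, 109 and 49.01 CPM in 5xFAD and 4.73, 0.13 and 0.338 CPM in WT of the Zbp1 cohort. The value of 4.73 CPM is that of WT 1, the library of lowest depth. The same library had 4.37 CPM of Itgax (CD11c) and 4.73 CPM of Clec7a, against 0.165 to 0.382 CPM and 0.519 to 0.768 CPM in the other 5 WT libraries of both cohorts. The difference for Cst7 was 1.85 ± 1.08 with all libraries and -0.17 without WT 1, that for Itgax 1.004 ± 0.88 and -0.66, and that for Clec7a 0.38 ± 0.79 and -0.91, so their direction rests on that library.

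Genes that microglia express at rest also had close medians, 1.20 in the Ripk1 cohort against 1.35 in the Zbp1 cohort. Of 20 homeostatic genes 18 were called higher in the Ripk1 cohort against 17 in the Zbp1 cohort, beside 4.71% and 3.96% of all genes. Their median difference was -0.16, and for 18 the interval lay within a 2-fold difference (49.9% of all genes). With 1 library left out that median ran from -0.36 (without Zbp1 cohort 5xFAD 3) to 0.0051 (without Zbp1 cohort 5xFAD 2). Csf1r, the receptor microglia need to survive, had 231, 220.2 and 222 CPM in 5xFAD and 96.98, 74.4 and 95.5 CPM in WT of the Ripk1 cohort, and 364, 315 and 205 CPM in 5xFAD and 105, 111 and 94.5 CPM in WT of the Zbp1 cohort. Its difference was -0.17 ± 0.19 (interval -0.57 to 0.22). The part of microglial number in the interferon difference was not tested. For 31 of 32 lysosomal genes the interval lay within a 2-fold difference (49.9% of all genes), with medians of 0.91 in both cohorts.

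Genes of astrocyte reactivity rose in both cohorts. Gfap, the intermediate filament of reactive astrocytes, had 2302, 2358 and 2282 CPM in 5xFAD and 396.1, 289.1 and 398 CPM in WT of the Ripk1 cohort, and 3683, 2601 and 2109 CPM in 5xFAD and 567.3, 491.8 and 461.7 CPM in WT of the Zbp1 cohort. The WT groups did not overlap and the 5xFAD groups did, and the difference of 0.21 ± 0.22 had an interval of -0.25 to 0.68. For C4b, a complement component made by astrocytes and oligodendrocytes, it was 0.37 ± 0.20 (interval -0.03 to 0.78), and for the protease inhibitor Serpina3n 0.48 ± 0.27 (interval -0.08 to 1.05). Of 28 reactive astrocyte genes 18 were called higher in the Ripk1 cohort against 17 in the Zbp1 cohort, beside 4.71% and 3.96% of all genes. Their median difference of 0.07 ran from -0.03 without Ripk1 cohort WT 1 to 0.23 without Ripk1 cohort WT 2.

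Transcripts linked to the transgenes were compared as well. Thy1, whose promoter elements drive the transgenes so that transgene reads may be counted on it, had 2705, 2262 and 2366 CPM in 5xFAD and 535.4, 554.5 and 606.5 CPM in WT of the Ripk1 cohort, and 2183, 2077 and 1475 CPM in 5xFAD and 654.6, 672.3 and 542.1 CPM in WT of the Zbp1 cohort. The lowest Ripk1 cohort 5xFAD library was above the highest of the Zbp1 cohort, the WT groups overlapped, and the difference was 0.49 ± 0.18 (interval 0.11 to 0.88, edgeR adjusted p = 0.429). Without Zbp1 cohort 5xFAD 3, the library at 1475 CPM, the unadjusted edgeR p of the Thy1 difference was not under 0.05. Mouse App, whose product the human transgene resembles, had a difference of 0.02 ± 0.10 and was called in neither cohort. The part of Thy1-linked transcripts in the interferon difference was not tested.

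**Figure D4:**
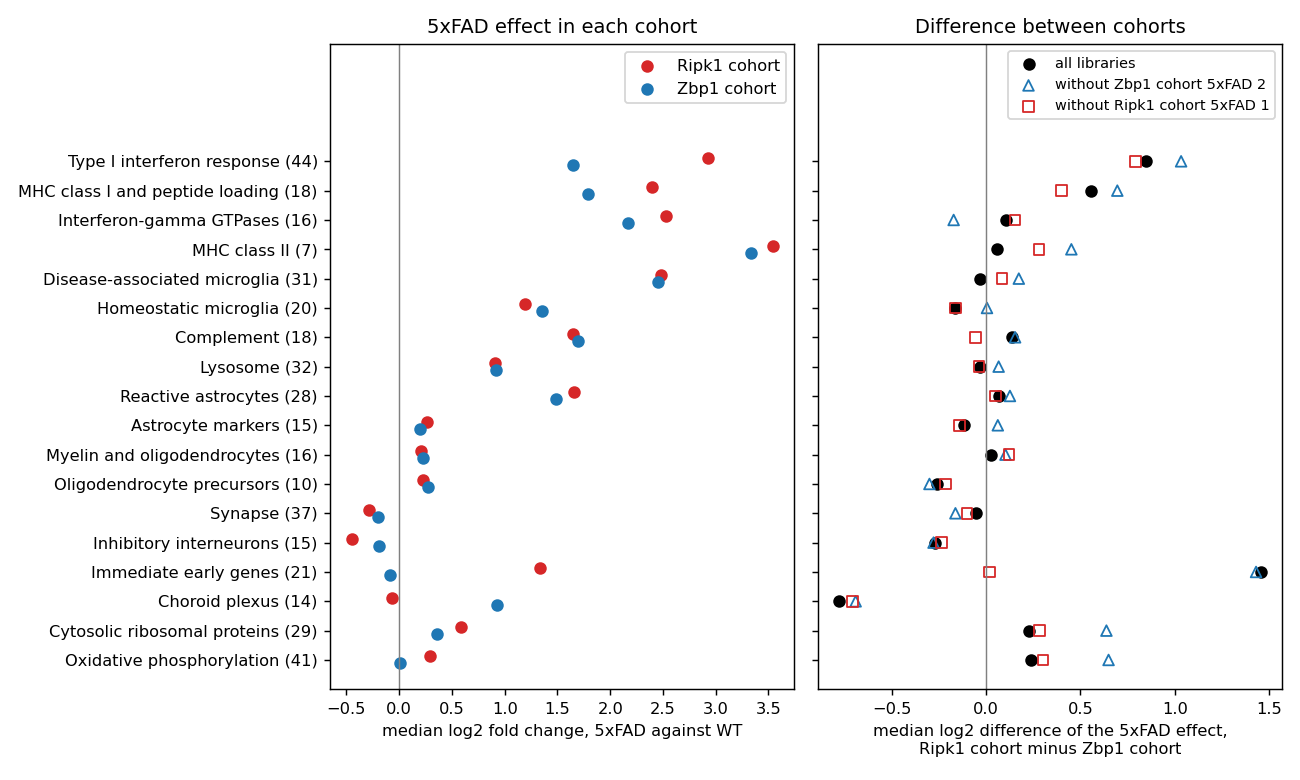
Left, median log2 fold change of 5xFAD over WT in the Ripk1 cohort (red) and the Zbp1 cohort (blue) for 18 gene lists, with the number of genes tested in brackets. Right, the median difference between cohorts with all libraries (black), without Zbp1 cohort 5xFAD 2 (triangles) and without Ripk1 cohort 5xFAD 1 (squares); the interferon list stays at 0.79 or above in these 3 fits, while the immediate early genes move to 0.02 without Ripk1 cohort 5xFAD 1.

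Most genes lowered by 5xFAD had the larger estimated fall in the Ripk1 cohort, but the few lowered at least 2-fold did not. Averaged over both cohorts, a contrast that does not use the difference, 3050 genes were called (13.5%), 1636 higher (7.25%) and 1414 lower (6.27%). The 1636 raised genes had a median difference of 0.0033, positive for 823 of them (50.3%, beside 49% of all genes). The 760 genes raised at least 2-fold on average had median log2 fold changes of 1.80 in the Ripk1 cohort against 1.83 in the Zbp1 cohort, and the difference was positive for 384 of them. Without both Zbp1 cohort WT 2 and 5xFAD 2, however, the set raised at least 2-fold had 789 genes with a median difference of -0.19, negative for 480 (60.8%). The 1414 lowered genes had medians of -0.40 in the Ripk1 cohort against -0.21 in the Zbp1 cohort. Of these, 1160 (82.0%) were lowered more in the Ripk1 cohort, and the median difference was -0.19. At an unadjusted p under 0.05, 347 (24.5%) were lowered more in the Ripk1 cohort against 16 (1.13%) in the Zbp1 cohort, beside 6.32% and 2.82% of all genes. The average and the difference share 1 spread estimate per gene. Picking genes by a small p for the average therefore also favours a small p for the difference. Without Zbp1 cohort 5xFAD 2 the lowered set had 1582 genes, of which 62.9% were lowered more in the Ripk1 cohort with a median difference of -0.10, and without both Zbp1 cohort WT 2 and 5xFAD 2 it had 1673 genes, of which 68.3% were, with a median difference of -0.13. The 43 genes lowered at least 2-fold went the other way, with medians of -1.32 in the Ripk1 cohort against -1.67 in the Zbp1 cohort, a median difference of 0.27 and 27 of 43 positive. Without Zbp1 cohort 5xFAD 2 that set had 47 genes and a median difference of 0.87, and in the fit of the 12 libraries alone 24 genes and -0.05. Most of the 1414 are small changes, and for 1220 of them (86.3%) the interval lay within a 2-fold difference, against 49.9% of all genes.

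Zfp365 and Ttc7b, among the genes most clearly lowered on average, show the scale. Zfp365, a neuronal zinc finger gene, had 259, 267 and 288 CPM in 5xFAD and 437, 348 and 423 CPM in WT of the Ripk1 cohort, and 317, 343 and 337 CPM in 5xFAD and 417, 443 and 417 CPM in WT of the Zbp1 cohort. In both cohorts 5xFAD lay below WT without overlap, and the difference was -0.21 ± 0.12. Ttc7b, a scaffold of a phosphatidylinositol kinase complex, had 97.95, 97.1 and 102 CPM in 5xFAD and 145, 139.8 and 146 CPM in WT of the Ripk1 cohort, and 122, 132 and 118 CPM in 5xFAD and 148, 155 and 133 CPM in WT of the Zbp1 cohort. It was called lower in the Ripk1 cohort (edgeR adjusted p = 1.71e-05) and missed the threshold in the Zbp1 cohort (edgeR adjusted p = 0.069), and the difference did not pass the test at -0.30 ± 0.10 (edgeR adjusted p = 0.409).

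Of 37 synaptic genes 13 were called lower in the Ripk1 cohort against 4 in the Zbp1 cohort, beside 6.04% and 0.483% of all genes, at medians of -0.28 and -0.20. For 36 of the 37 the interval lay within a 2-fold difference (49.9% of all genes). The median difference of -0.05 ran from -0.16 without Zbp1 cohort 5xFAD 2 to -0.0041 without Zbp1 cohort WT 2. In those fits 17 and 3 members had an unadjusted p under 0.05, beside 19.8% and 9.30% of all genes. Of 15 inhibitory interneuron genes 7 were called lower in the Ripk1 cohort against 1 in the Zbp1 cohort, beside 6.04% and 0.483% of all genes. Their median difference was -0.27. At an unadjusted p under 0.05, 5 had the more negative effect in the Ripk1 cohort against 3 in the Zbp1 cohort, beside 6.32% and 2.82% of all genes. With 1 library left out the median ran from -0.40 (without Ripk1 cohort 5xFAD 3) to -0.16 (without Ripk1 cohort WT 2). Over those fits 4 to 10 members had an unadjusted p under 0.05 (6.65% to 19.8% of all genes). Erbb4, the neuregulin receptor of many interneurons, had 45.3, 38.2 and 52.02 CPM in 5xFAD and 106, 97.2 and 66.1 CPM in WT of the Ripk1 cohort, and 73.4, 48.6 and 86.7 CPM in 5xFAD and 74.04, 53.8 and 71.9 CPM in WT of the Zbp1 cohort. The Ripk1 cohort's genotypes did not overlap, those of the Zbp1 cohort did, and the difference was -1.06 ± 0.33. Slc17a6, the glutamate transporter VGLUT2 of thalamic and other subcortical inputs, was called lower in both cohorts, at -1.94 ± 0.38 and -1.42 ± 0.38.

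Several astrocyte and oligodendrocyte precursor genes had an effect that was more positive in the Zbp1 cohort. Pdgfra, the growth factor receptor that marks oligodendrocyte precursors, had 50.1, 54.8 and 63.8 CPM in 5xFAD and 84.3, 81.7 and 69.9 CPM in WT of the Ripk1 cohort, and 84.4, 84.4 and 80.03 CPM in 5xFAD and 70.2, 73.6 and 67.6 CPM in WT of the Zbp1 cohort. In the Ripk1 cohort 5xFAD lay below WT and in the Zbp1 cohort above it, without overlap in either. It was called lower in the Ripk1 cohort at -0.48 ± 0.10, the Zbp1 cohort's 0.24 ± 0.10 did not pass the threshold (edgeR adjusted p = 0.277), and the difference was -0.72 ± 0.15 with an interval of -1.02 to -0.41 (edgeR adjusted p = 0.237). Other precursor genes moved less: Ptprz1, a receptor phosphatase shared with astrocytes, gave -0.61 ± 0.18, and the proteoglycan gene Vcan -0.39 ± 0.17. Over the 10 precursor genes the median was -0.26, with 4 positive and a highest value of 0.42. At an unadjusted p under 0.05, 3 had the more positive effect in the Zbp1 cohort (6.32% of all genes). In the Ripk1 cohort 1 did (2.82% of all genes).

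Ntrk2, which encodes TrkB, the receptor of brain-derived neurotrophic factor, had 472, 507 and 563 CPM in 5xFAD and 729, 724 and 592 CPM in WT of the Ripk1 cohort, and 848, 699 and 769 CPM in 5xFAD and 697, 621 and 595 CPM in WT of the Zbp1 cohort. Again 5xFAD lay below WT in the Ripk1 cohort and above it in the Zbp1 cohort. The difference was -0.68 ± 0.15 (interval -0.997 to -0.37). Ppara, a nuclear receptor for fatty acids, had 1.63, 0.981 and 1.36 CPM in 5xFAD and 3.37, 4.23 and 2.55 CPM in WT of the Ripk1 cohort, and 4.28, 4.95 and 4.94 CPM in 5xFAD and 4.73, 3.73 and 2.09 CPM in WT of the Zbp1 cohort. It was called lower in the Ripk1 cohort (-1.37 ± 0.29), where the genotypes did not overlap, and the difference was -1.84 ± 0.40.

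The astrocyte transporters gave 2 different pictures. Slc6a11, the GABA transporter GAT-3, had 103, 112 and 121 CPM in 5xFAD and 198, 191 and 177 CPM in WT of the Ripk1 cohort, and 148, 192 and 145 CPM in 5xFAD and 187, 186 and 173 CPM in WT of the Zbp1 cohort. Its difference of -0.58 ± 0.14 held within 1 direction of change, a fall called in the Ripk1 cohort at -0.75 ± 0.10. Slc1a2, the main glutamate transporter GLT-1, had 3067, 2825 and 3145 CPM in 5xFAD and 5800, 4272 and 4745 CPM in WT of the Ripk1 cohort, and 5337, 3102 and 5054 CPM in 5xFAD and 5197, 3265 and 4451 CPM in WT of the Zbp1 cohort. Its low values in the Zbp1 cohort are those of 5xFAD 2 and WT 2, the libraries also low in Malat1, and the difference was -0.78 ± 0.26. Across 15 astrocyte markers the median difference was -0.12, and 4 of them, Slc1a2 and the gap junction gene Gja1 (-0.29 ± 0.11) included, had a more positive effect in the Zbp1 cohort at an unadjusted p under 0.05, beside 6.32% of all genes. The median was -0.24 without Zbp1 cohort WT 2 and turned to 0.06, with 9 of 15 positive, without Zbp1 cohort 5xFAD 2; without Zbp1 cohort 5xFAD 3, 1 of 15 was positive.

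Ptch1, the receptor that holds the Hedgehog pathway off, was called lower in the Ripk1 cohort at -0.85 ± 0.14, with 37.3, 35.8 and 40.5 CPM in 5xFAD and 70.3, 69.6 and 65.2 CPM in WT, against 71.2, 48.3 and 68.5 CPM in 5xFAD and 63.7, 52.4 and 64.7 CPM in WT of the Zbp1 cohort. The Ripk1 cohort's genotypes were well apart and the Zbp1 cohort's mixed, and the difference was -0.91 ± 0.20. DESeq2's 21 calls in this direction include Pdgfra, Ntrk2, Ppara, Slc6a11 and Ptch1. Also among them were Rab22a (an endosomal GTPase, -0.66 ± 0.14), Vezf1 (a zinc finger transcription factor, -0.62 ± 0.13), Dag1 (dystroglycan, a matrix receptor, -0.59 ± 0.13), Pcdh11x (a protocadherin, -1.38 ± 0.33), Klhl11 (-1.28 ± 0.30), Exph5 (-1.72 ± 0.41) and the orphan receptor gene Gpr165 (-1.98 ± 0.43). In each of these 12 the Ripk1 cohort's own effect was a called fall, and the Zbp1 cohort's effect was not called. Reep3, an endoplasmic reticulum protein gene, had 50.6, 50.7 and 54.3 CPM in 5xFAD and 63.2, 54.02 and 58.3 CPM in WT of the Ripk1 cohort, and 87.4, 63.1 and 81.3 CPM in 5xFAD and 53.3, 54.7 and 55.3 CPM in WT of the Zbp1 cohort. There the call was a rise in the Zbp1 cohort (0.51 ± 0.10), as it was for Minar1 (1.43 ± 0.26). Of DESeq2's 29 genes, 23 were also called by edgeR between the 5xFAD groups and 1 between the WT groups, beside 1.33% and 0.0266% of all genes. Each of these comparisons is a part of the difference on the same libraries, so the overlap is partly built in and is not a separate result.

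**Figure D5:**
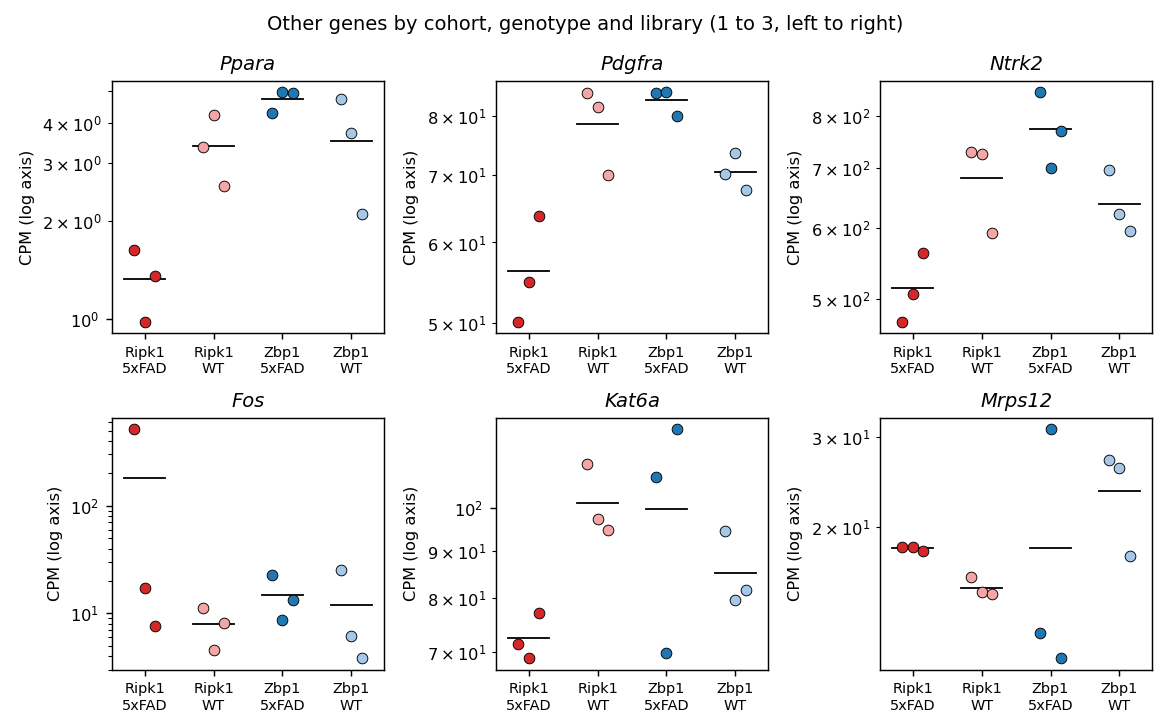
CPM of 6 further genes in each library (points, 1 to 3 from left to right) with the group mean (line), on log axes that differ between panels. Ppara, Pdgfra and Ntrk2 are low in all 3 Ripk1 cohort 5xFAD libraries, Fos is high in Ripk1 cohort 5xFAD 1 alone at 515 CPM, and in Kat6a and Mrps12 Zbp1 cohort 5xFAD 2 lies on the far side of its group.

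The difference in neuronal activity genes rested on 1 library. Of 21 immediate early genes 18 had the more positive effect in the Ripk1 cohort (49% of all genes), the median difference was 1.46, and 13 had an unadjusted p under 0.05, each more positive in the Ripk1 cohort (2.82% of all genes). Their summed level was 6120, 850 and 804.5 CPM in 5xFAD and 1113, 877.7 and 1042 CPM in WT of the Ripk1 cohort, and 946.9, 987.7 and 1162 CPM in 5xFAD and 1487, 1109 and 958 CPM in WT of the Zbp1 cohort. Without Ripk1 cohort 5xFAD 1 the median was 0.02 and 2 members had an unadjusted p under 0.05 (7.46% of all genes in that fit). Fos had 515, 17.3 and 7.59 CPM in 5xFAD and 11.2, 4.57 and 8.21 CPM in WT of the Ripk1 cohort, and 22.5, 8.61 and 13.3 CPM in 5xFAD and 25.5, 6.19 and 3.81 CPM in WT of the Zbp1 cohort. Fitting without the low-count filter called 16 of the 21 (0.476% of all genes in that fit), so these genes are part of its 188 calls. Bdnf, the activity-induced neurotrophin, had 81.1 CPM in that library and 34.5 to 55.9 CPM in the other 11, with a difference of 0.84 ± 0.23.

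For mitochondrial and ribosomal genes single Zbp1 cohort libraries moved the comparison. Of 41 oxidative phosphorylation genes 38 had a positive difference, with a median of 0.24 and 0 at an unadjusted p under 0.05. Without Zbp1 cohort 5xFAD 2 the median was 0.65 and 35 of 41 had an unadjusted p under 0.05 (19.8% of all genes in that fit). It was 0.0050 with 22 of 41 positive without Zbp1 cohort WT 2, 0.08 without 5xFAD 1 and 0.05 without 5xFAD 3 of that cohort. Their summed level was 3988, 6709 and 3930 CPM in 5xFAD and 4195, 6079 and 4436 CPM in WT of the Zbp1 cohort, so both libraries numbered 2 were high. In the Ripk1 cohort it was 4488 to 4969 CPM in 5xFAD and 4161 to 4464 CPM in WT. The 29 cytosolic ribosomal protein genes had a median of 0.23 with all libraries, 0.64 without Zbp1 cohort 5xFAD 2, 0.0049 without Zbp1 cohort 5xFAD 3 and -0.04 without Zbp1 cohort WT 2.

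Mrps12, a mitochondrial ribosomal protein gene, was among the genes of smallest p in the fit without that library, at 1.25 on the log2 scale. With all libraries it had 18.3, 18.2 and 17.9 CPM in 5xFAD and 15.9, 14.9 and 14.7 CPM in WT of the Ripk1 cohort, and 12.4, 31.1 and 11.04 CPM in 5xFAD and 27.1, 26.03 and 17.5 CPM in WT of the Zbp1 cohort, a difference of 0.62 ± 0.35. Zbp1 cohort 5xFAD 2 was the highest of all 12. Similar placements were seen for Coq2 (coenzyme Q synthesis, 0.57 ± 0.17 with all libraries and 0.80 without that library), Acot13 (a thioesterase, 0.69 ± 0.27 and 1.08) and Jund (a subunit of AP-1, 0.73 ± 0.29 and 1.15). Among genes more positive in the Zbp1 cohort in that fit, Kat6a, a histone acetyltransferase gene, had 71.3, 68.9 and 77.1 CPM in 5xFAD and 112, 97.3 and 94.7 CPM in WT of the Ripk1 cohort, and 108, 69.8 and 122 CPM in 5xFAD and 94.4, 79.6 and 81.6 CPM in WT of the Zbp1 cohort, where 69.8 is again 5xFAD 2. Of the 208 genes called more positive in the Ripk1 cohort without that library, it lay above both other Zbp1 cohort 5xFAD libraries in 201 (38.3% of all genes), and Zbp1 cohort WT 2 lay above both other WT libraries in 187 (39.25% of all genes). Of the 385 called more positive in the Zbp1 cohort it lay below both in 371 (40.7% of all genes), and WT 2 below both in 259 (30.7% of all genes). The 593 were picked by a fit without 5xFAD 2, and none of them was called in edgeR's reported fit with all libraries. The far place of 5xFAD 2 is therefore largely built into that choice and is not a separate result. All 593 had the same sign with all libraries, in a fit that shares the remaining libraries.

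Choroid plexus genes left the comparison undetermined. All 14 had a negative difference with a median of -0.78, 0 had an unadjusted p under 0.05, and for 0 did the interval lie within a 2-fold difference. Leaving out 1 library moved the median between -3.77 and 0.43. Transcripts such as Ttr therefore gave no usable difference at this spread, with an interval of -4.96 to 4.86.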

How the data were processed

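The authors deposited, for each cohort, a table of raw counts of reads on Ensembl gene IDs from polyadenylated hippocampal RNA. They also deposited tables of their own comparisons with a log2 fold change and an adjusted p-value per gene, per the file headers. The submitters' processing notes name HISAT2, DESeq2 1.42.1, edgeR 4.0.16 and the builds mm10 and mm39. Counting options, strand use and the build of each step, not given in the sources used here, could divide reads among overlapping genes or near-identical copies. Of 55487 IDs, 55141 matched a symbol.

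The 24 hippocampal libraries were fitted together in edgeR 4.0.16 (R 4.3.3) with TMM, filterByExpr by group, 1 mean per cohort and genotype, quasi-likelihood tests and Benjamini-Hochberg adjustment. SE, given after ±, is the absolute log2 fold change over the square root of F. The 95% intervals use the t quantile. The procedure was run on simulated counts with large planted changes and the same spread in every library. That run does not cover the smaller differences or the noisy libraries described here. Alternatives were DESeq2 1.42.0, limma 3.58.1 (trend, and voom with sample weights), other scalings and filters, a replicate block and fits with fewer libraries. Replicate pairs differed by more than sampling noise.

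The comparison, the 33 gene lists (643 symbols, 2 unmatched) and the named genes were chosen with earlier results of these data known. Named genes are set targets and markers, the 10 of smallest p for the difference in each direction (also without Zbp1 cohort 5xFAD 2), up to 30 called by edgeR or DESeq2, 3 per list, and 5 per direction for the average effect. Predicted genes and those under 1 CPM were passed over in the ranked parts.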

Additional observations from a re-analysis of the deposited data

How the results depend on the processing

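With 3 libraries per group and a median SE of 0.33 for a difference, the interval excluded a 2-fold difference for 11250 of 22565 genes. The count of genes with a cohort difference was 0 in the reported fit, 29 with DESeq2's Wald test, 188 without the low-count filter and 0 to 593 with 1 library left out. With RLE size factors, a filter at 1 CPM, limma-trend, limma voom with sample weights, or the 12 WT and 5xFAD libraries alone, it was 0. Of 693 list medians recomputed under an alternative 666 moved by less than 1 SD of the members, and 53 of the 63 genes named kept their sign in each setting.

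For 5xFAD against WT in the Ripk1 cohort the 2426 calls became 1325 with the 12 libraries alone, 4451 with voom, 3768 without WT 2 and 5xFAD 2 of the Zbp1 cohort, and 1302 to 3217 with 1 library left out. In the Zbp1 cohort the 1003 became 646 with the 12 libraries alone, 665 with that cohort alone and 724 to 1633 with 1 left out. The average effect's 3050 became 1875 with the 12 libraries alone. The 6 calls between the WT groups became 22 with DESeq2, 62 without the filter, 3 with the stricter filter, 1 with the 12 libraries alone, 10 with limma-trend, 3 with voom and 1 to 10 with 1 left out. Between the 5xFAD groups the 301 became 758 with DESeq2, 580 without the filter, 1 with the 12 libraries alone, 606 with voom, 1839 without that Zbp1 cohort pair and 37 to 1066 with 1 left out. The causes were not tested.

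With a replicate block, fitted although same-numbered libraries were not shown to be paired (correlations of their deviations 0.008, 0.112 and 0.048 in the Ripk1 cohort and 0.112, 0.367 and 0.090 in the Zbp1 cohort, and 4 of 6 5xFAD libraries matched best by the WT library of their number), the counts were 0 for the difference, 2824 and 1089 for the effects in the Ripk1 and Zbp1 cohorts, 3424 for the average, 0 between the WT groups and 7 between the 5xFAD groups.

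The log2 difference changed sign for Clec7a with voom (-0.23) and for Zbp1 without WT 2 and 5xFAD 2 of the Zbp1 cohort (-0.17). With 1 library left out it reversed for Zbp1 (-0.0081 to 1.78), Cst7 (-0.17 to 2.65), Itgax (-0.66 to 1.68), Trem2 (-0.26 to 0.18), Clec7a (-0.91 to 0.95), Csf1r (-0.38 to 0.0038), App (-0.026 to 0.053), Mpeg1 (-0.30 to 0.12), Ttr (-4.08 to 1.41) and Malat1 (-0.026 to 0.71), each with the lowest and highest value over those fits.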

Other observations

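The authors' deposited table for each cohort gives a log2 fold change of 5xFAD over WT, and the difference between those tables can be set beside the fit. Over 17555 genes present in both of the authors' deposited tables and tested here, Pearson's r across genes between the 2 sets of differences was 0.995; they come from the same counts, so this compares procedures and not animals. From the authors' deposited tables the median difference of the 44 type I interferon genes was 0.848, with 42 larger in the Ripk1 cohort, and that of the 31 disease-associated microglia genes was 0.029, with 16 larger in the Ripk1 cohort. Ifit3 stood at 3.62 (Ripk1 cohort) and 1.67 (Zbp1 cohort) in the authors' deposited tables.

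Some gene groups not described above gave these values. The 26 necroptosis, apoptosis and pyroptosis genes had medians of 0.71 in the Ripk1 cohort against 0.74 in the Zbp1 cohort, with a median difference of -0.08. Of them 10 and 14 were called higher, beside 4.71% and 3.96% of all genes. The 24 cholesterol synthesis genes had 9 called higher in the Ripk1 cohort against 3 in the Zbp1 cohort, beside the same shares of all genes. Their median difference of 0.04 ran from -0.02 without Zbp1 cohort 5xFAD 3 to 0.15 without Zbp1 cohort 5xFAD 1. Among 12 T and NK lymphocyte genes 3 were called higher in each cohort, and their summed level was 8.09 to 11.4 CPM in 5xFAD and 3.05 to 3.61 CPM in WT of the Ripk1 cohort, and 6.13 to 10.2 CPM in 5xFAD and 1.99 to 3.40 CPM in WT of the Zbp1 cohort. Prss23, a serine protease gene, had one of the smaller p-values of the difference (1.17 ± 0.29), with 9.54, 10.5 and 10.8 CPM in 5xFAD and 4.98, 5.45 and 5.68 CPM in WT of the Ripk1 cohort, and 5.51, 8.5 and 5.35 CPM in 5xFAD and 7.28, 8.17 and 7.19 CPM in WT of the Zbp1 cohort.

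Hnrnpm, a splicing regulator gene of very even expression, had 140.3, 143 and 139 CPM in 5xFAD and 136, 128 and 128 CPM in WT of the Ripk1 cohort, and 131, 127 and 140.2 CPM in 5xFAD and 160.5, 157 and 153 CPM in WT of the Zbp1 cohort. Its 5xFAD groups overlap only through the Zbp1 cohort library at 140.2 CPM, its WT groups do not overlap, and the difference was 0.35 ± 0.09.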
